A study of Mus musculus with 6 samples.

Results

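Lactate production and monocarboxylate export were followed through 7 genes of the 17068 in the count table: the lactate dehydrogenase subunits Ldha and Ldhb, the monocarboxylate transporters Slc16a1, Slc16a3, Slc16a4 and Slc16a7, and Bsg, which encodes basigin. They were chosen by function, with earlier results of these data known, and all 7 were found in the table. RNA of the lateral cortex of female mouse embryos of strain c57/bl6 at embryonic day 12.5 was sequenced in bulk, with 4 control libraries and 2 labelled Foxp1cKO. Controls 1, 2 and 4 carried Foxp1 fl/+ and control 3 carried Foxp1 fl/fl, all without Cre. The libraries labelled Foxp1cKO carried Foxp1 fl/fl;Emx1Cre, in which Emx1 drives Cre in the progenitors of the dorsal telencephalon and in the cells they give rise to, so that vessels, blood and microglia in the same dissection keep their floxed alleles. The labels do not say which embryos shared a litter, and p-values measure the spread between these 6 libraries.

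Lactate dehydrogenase is a tetramer of A and B subunits that interconverts pyruvate and lactate. Tetramers rich in A subunits favour lactate formation, which regenerates the NAD+ that glycolysis needs, and tetramers rich in B subunits favour the return of lactate to pyruvate. Lactate crosses the plasma membrane together with a proton through monocarboxylate transporters. Slc16a1 encodes the widely expressed MCT1, Slc16a3 encodes MCT4, the exporter of strongly glycolytic cells, and Slc16a7 encodes MCT2, a high-affinity carrier that neurons use for uptake. Slc16a4 encodes a less studied family member. Basigin is a membrane glycoprotein that carries MCT1 and MCT4 to the cell surface.

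Libraries held 50076008 to 78346979 counts, and a floor of 3 counts corresponded to 0.0381 to 0.0596 CPM (reads of a gene per all counted reads of its library, scaled by TMM). Foxp1 itself was at 59.7, 60.8, 71.2 and 79.1 CPM in the controls and at 83.2 and 76.8 CPM in the libraries labelled Foxp1cKO, a log2 fold change of 0.24 (SE 0.129, edgeR adjusted p = 0.468). The targeted gene was therefore not lower at the level of the whole gene, and the groups are named by their labels throughout. Counts over the whole gene include exons outside the floxed part, and reads of the deleted exons alone were not analysed here.

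The start regions of Ldha, Slc16a3, Slc16a1 and Ldhb are shown because the first pair had the largest fold changes, and the second pair are the other subunit and the transporter with the highest level in controls. Each window is the RefSeq window of GRCm38.p6 from 250 bases before to 50 bases after the annotated start, read 5′ to 3′ on the gene's strand, and capitals mark ACGTG or GCGTG on either strand, the core letters of hypoxia response elements.
Ldha, chr7:46845554-46845853, plus strand: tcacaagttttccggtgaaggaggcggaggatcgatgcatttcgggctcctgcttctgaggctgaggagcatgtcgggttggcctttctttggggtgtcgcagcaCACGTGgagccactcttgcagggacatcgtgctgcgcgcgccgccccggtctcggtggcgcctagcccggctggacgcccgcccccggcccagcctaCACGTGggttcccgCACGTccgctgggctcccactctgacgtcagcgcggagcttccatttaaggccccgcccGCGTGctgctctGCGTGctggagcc
Slc16a3, chr11:120948817-120949116, plus strand: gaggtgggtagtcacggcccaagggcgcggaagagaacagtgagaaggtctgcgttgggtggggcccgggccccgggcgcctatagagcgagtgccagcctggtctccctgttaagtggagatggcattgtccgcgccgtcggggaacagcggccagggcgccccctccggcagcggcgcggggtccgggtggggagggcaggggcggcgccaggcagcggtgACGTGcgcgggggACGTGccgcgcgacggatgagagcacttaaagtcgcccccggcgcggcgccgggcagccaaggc
Slc16a1, chr3:104638414-104638713, plus strand: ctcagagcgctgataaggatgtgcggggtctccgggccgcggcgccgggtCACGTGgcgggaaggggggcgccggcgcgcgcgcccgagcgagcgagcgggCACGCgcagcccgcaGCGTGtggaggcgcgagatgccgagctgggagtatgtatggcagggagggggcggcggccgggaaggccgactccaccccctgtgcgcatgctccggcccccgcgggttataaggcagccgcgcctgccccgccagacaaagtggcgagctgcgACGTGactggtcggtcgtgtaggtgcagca
Ldhb, chr6:142507908-142508207, minus strand: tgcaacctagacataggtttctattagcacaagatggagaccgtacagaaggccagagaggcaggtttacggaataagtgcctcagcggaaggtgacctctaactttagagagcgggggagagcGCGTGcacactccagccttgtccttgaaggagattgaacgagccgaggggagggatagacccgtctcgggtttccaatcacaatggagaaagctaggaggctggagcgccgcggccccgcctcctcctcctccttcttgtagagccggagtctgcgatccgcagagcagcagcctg

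The Ldha window held 5 ACGTG matches and 2 GCGTG matches. Both CACGTG palindromes were counted on each strand, so that these 5 matches lie at 3 places. The Slc16a3 window held 2 ACGTG matches, with first bases at -27 and -14 from the start, and no GCGTG. The Slc16a1 window held 3 ACGTG matches, one palindrome included, and 2 GCGTG matches, and the Ldhb window held 1 GCGTG match alone. A further Ldha window, at another start, held 2 GCGTG matches, and the Slc16a4 window held neither motif. Of 32851 RefSeq windows of this length, 19.6% held ACGTG, 32.4% held GCGTG and 43.8% held at least one of them. The forkhead core TGTTTAC, found in 3.65% of windows, was in none of the 6 windows of these genes. Windows of Slc16a7 and Bsg were not used here.

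Ldha lies on chromosome 7 from 46841475 to 46855627 (GENCODE M21, GRCm38, the assembly of mm10), on the plus strand. It was at 408, 345, 253 and 542 CPM in controls 1 to 4 and at 917 and 1070 CPM in the libraries labelled Foxp1cKO. Both libraries labelled Foxp1cKO lay above every control, and the lower of them was 1.69-fold above the highest control. The means were 386.9 ± 121.2 CPM (SD, n = 4) and 994.4 ± 109.9 CPM (SD, n = 2), a fitted 2.57-fold difference. The log2 fold change of 1.36 (SE 0.262, 95% interval 0.74 to 1.98) had an adjusted p of 0.196 over all genes in edgeR's quasi-likelihood test (0.00122 before adjustment), and did not pass the threshold of 0.05. Only 0.943% of all genes had a higher fold change. Ldha has 2 annotated pseudogenes that carry its name, neither of them in the count table, and reads shared with them could have been lost from the gene. Pseudogenes under other names were not searched for.

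Ldhb, on the minus strand of chromosome 6 from 142490249 to 142507957, showed no such separation. It was at 176, 209, 189 and 179 CPM in the controls and at 146 and 192 CPM in the libraries labelled Foxp1cKO, one below every control and one within their range. The log2 fold change was -0.15 (SE 0.128, edgeR adjusted p = 0.635), with a 95% interval from -0.46 to 0.15.

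Transcript shares of the subunits were compared per kilobase of exon (RPKM, CPM divided by the union of annotated exons). These libraries hold RNA alone, so the make-up of the enzyme and the amount of lactate were not measured. Ldha made up 52.3%, 43.9%, 38.9% and 59.0% of the summed Ldha and Ldhb level in controls 1 to 4, and 74.9% and 72.6% in the libraries labelled Foxp1cKO. The share was 48.5% ± 8.9 (SD, n = 4) against 73.7% ± 1.64 (SD, n = 2), a difference of 25.2 percentage points with no overlap. An exact permutation test of 4 against 2 libraries gave a two-sided p of 0.133, the smallest that this design allows. In controls the level of Ldhb (120 ± 9.41 RPKM) and that of Ldha (117 ± 36.6 RPKM) did not differ beyond their spread. In the libraries labelled Foxp1cKO the levels were 108 ± 20.9 RPKM for Ldhb and 300 ± 33.2 RPKM for Ldha. The summed subunit level was 237 ± 33.1 RPKM in controls and 408 ± 54.1 RPKM in the libraries labelled Foxp1cKO. With the longest transcript in place of all exons, the ratio of Ldha to Ldhb ran from 0.963 to 2.18 in controls and from 4.01 to 4.52 in the libraries labelled Foxp1cKO, so the order of the subunits in controls depends on the length used.

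**Figure D1:**
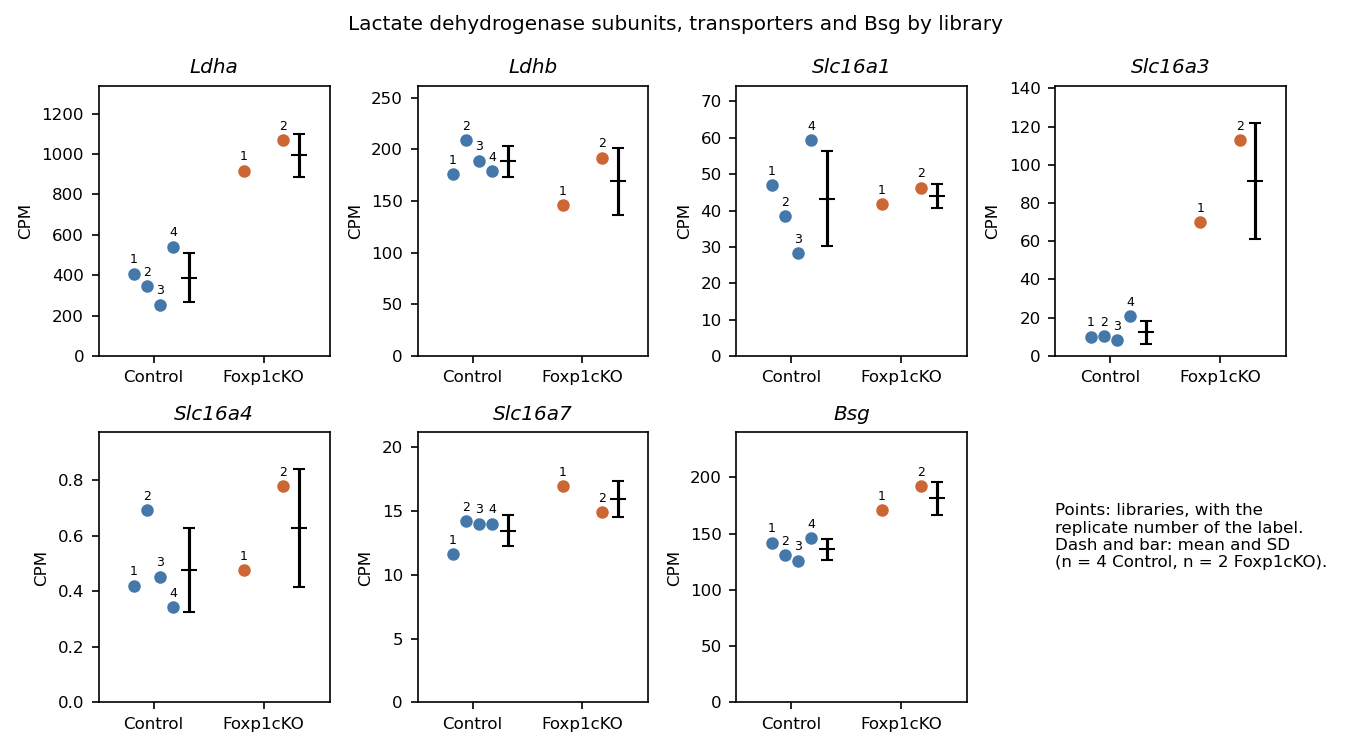
CPM (linear axis from 0) of each gene by library, with points numbered as in the labels and a dash with a bar for the mean and SD (n = 4 and n = 2). Points of Ldha (253 to 542 against 917 and 1070 CPM) and Slc16a3 (8.08 to 20.9 against 69.9 and 113 CPM) stand well apart, those of Bsg and Slc16a7 narrowly so, and those of Ldhb, Slc16a1 and Slc16a4 overlap.

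Among the transporters, Slc16a3 had the largest fold change of the 7 genes. It lies on the plus strand of chromosome 11 from 120948480 to 120960868. It had 622, 634, 589 and 1648 reads in controls 1 to 4 and 3516 and 8546 reads in the libraries labelled Foxp1cKO. Scaled to depth, controls 1 to 3 lay between 8.08 and 10.2 CPM, control 4 was at 20.9 CPM, and the libraries labelled Foxp1cKO were at 69.9 and 113 CPM. Control 4 was the highest control, and the lower library labelled Foxp1cKO exceeded it 3.34-fold. The means were 12.31 ± 5.823 CPM (SD, n = 4) and 91.26 ± 30.26 CPM (SD, n = 2), a fitted 7.4-fold difference. The log2 fold change was 2.89 (SE 0.377, 95% interval 2.0 to 3.78), with an adjusted p of 0.0658 in edgeR, just outside the threshold, and 0.000116 before adjustment. It ranked 20 among the 17068 fold changes from the highest.

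Slc16a1, the most abundant transporter in controls, was not separated between the groups. It lies on the plus strand of chromosome 3 from 104638668 to 104658462. It was at 47.0, 38.5, 28.3 and 59.4 CPM in the controls and at 41.7 and 46.3 CPM in the libraries labelled Foxp1cKO, both within the range of the controls. The log2 fold change of 0.02 (SE 0.264, edgeR adjusted p = 0.98) has a 95% interval from -0.6 to 0.65, which leaves room for a change in either direction.

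Slc16a7, on the minus strand of chromosome 10 from 125219270 to 125389465, was at 11.6, 14.2, 14.0 and 14.0 CPM in the controls and at 16.9 and 14.9 CPM in the libraries labelled Foxp1cKO. Both lay above every control, by 1.05-fold at the closest, and the log2 fold change was 0.24 (SE 0.132, 95% interval -0.07 to 0.55, edgeR adjusted p = 0.48). Slc16a4, on the plus strand of chromosome 3 from 107291230 to 107312115, was the least abundant of the 7 genes. It had 26, 43, 33 and 27 reads in the controls and 24 and 59 reads in the libraries labelled Foxp1cKO, or 0.343 to 0.692 CPM against 0.477 and 0.778 CPM. The exact Poisson 95% interval of the lowest library was 0.226 to 0.499 CPM and that of the highest was 0.592 to 1.0 CPM, for counting error only. The groups overlapped, and the log2 fold change was 0.41 (SE 0.374, 95% interval -0.47 to 1.3, edgeR adjusted p = 0.668).

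The mix of the 4 transporters per kilobase did not overlap between the groups for Slc16a1, Slc16a3 and Slc16a7. Slc16a1 made up 78.1%, 72.5%, 69.4% and 72.0% of their summed level in controls, and 39.1% and 31.6% in the libraries labelled Foxp1cKO. Slc16a3 made up 13.9%, 16.0%, 16.5% and 21.1% in controls, and 54.5% and 64.0% in the libraries labelled Foxp1cKO. The largest share thus belonged to Slc16a1 in each control and to Slc16a3 in both libraries labelled Foxp1cKO. The Slc16a3 share was 16.9% ± 3.05 (SD, n = 4) against 59.2% ± 6.71 (SD, n = 2), with the smallest possible exact permutation p of 0.133 (two-sided), as for Slc16a1 and Slc16a7. The Slc16a7 share was 9.1% ± 2.93 in controls and 4.86% ± 1.51 in the libraries labelled Foxp1cKO, although the level of Slc16a7 itself was not lower. Slc16a4 contributed 1.01% ± 0.457 and 0.558% ± 0.0677 (exact permutation p = 0.4, two-sided). The ratio of Slc16a3 to Slc16a1 per kilobase was 0.178 to 0.293 in controls and 1.39 and 2.02 in the libraries labelled Foxp1cKO.

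**Figure D2:**
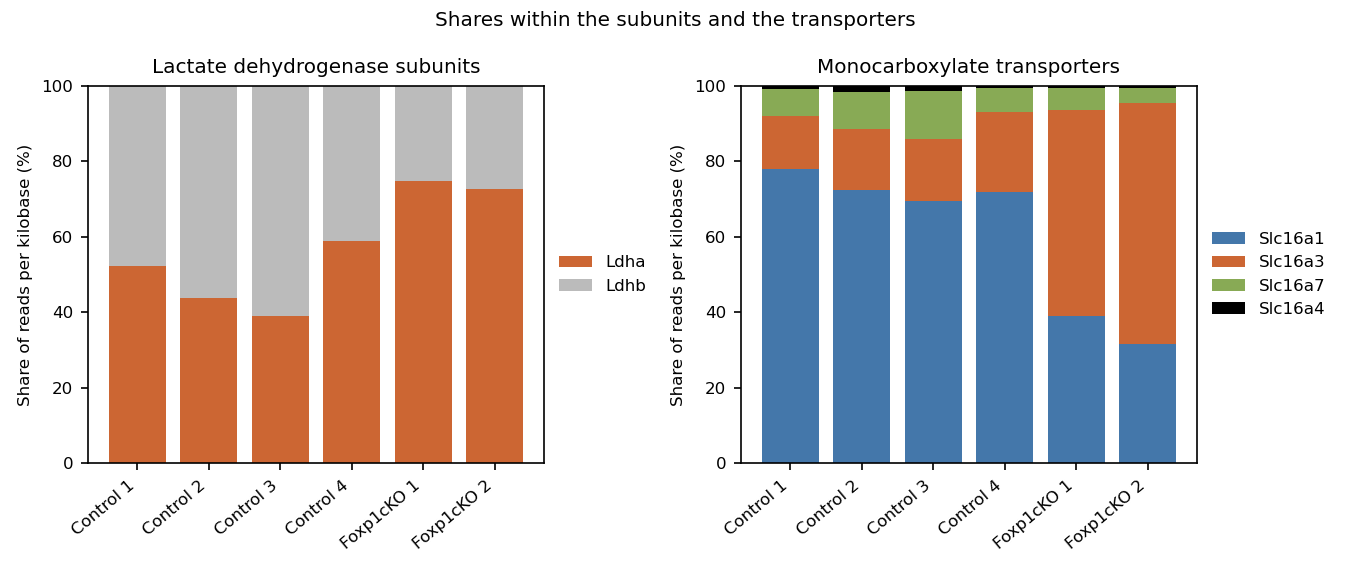
Stacked bars give, for each library, the share (%) of reads per kilobase of Ldha and Ldhb within the lactate dehydrogenase subunits (left) and of Slc16a1, Slc16a3, Slc16a7 and Slc16a4 within the transporters (right). Slc16a3 takes 13.9% to 21.1% of the bar in controls and 54.5% and 64.0% in the libraries labelled Foxp1cKO.

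Bsg, the chaperone, lies on the plus strand of chromosome 10 from 79704491 to 79711969. It was at 142, 131, 126 and 146 CPM in the controls and at 171 and 192 CPM in the libraries labelled Foxp1cKO. Both lay above every control, by 1.17-fold at the closest, and the spread among controls was small (136.6 ± 9.44 CPM, SD, n = 4). The log2 fold change was 0.41 (SE 0.0911, 95% interval 0.2 to 0.63), with an adjusted p of 0.242 in edgeR and 0.00274 before adjustment. The summed level of the 4 transporters was 13.4 ± 3.95 RPKM in controls and 28.6 ± 6.36 RPKM in the libraries labelled Foxp1cKO. The Bsg level per summed transporter level was 5.92 ± 1.32 (SD, n = 4) in controls and 3.55 ± 0.501 (SD, n = 2) in the libraries labelled Foxp1cKO, without overlap (exact permutation p = 0.133, two-sided).

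Over the 7 genes, none passed an adjusted p of 0.05 in edgeR, where 0.152% of all genes did (26 genes). At an unadjusted p under 0.05 there were 3 of 7 (Ldha, Slc16a3 and Bsg), beside 13.0% of all genes. DESeq2 called the same 3 genes higher, with adjusted p-values of 9.29e-05 for Ldha, 7.98e-12 for Slc16a3 and 0.00812 for Bsg, beside 2.06% of the genes to which it gave an adjusted p, and limma called Slc16a3 alone (adjusted p = 0.0447). Both libraries labelled Foxp1cKO lay above every control for 4 of 7 genes (Ldha, Slc16a3, Slc16a7 and Bsg), beside 11.5% of all genes, and below every control for none, beside 13.1%. The median log2 fold change of the 7 genes was 0.41, and that of all genes was -0.0044. Summed over the 7 genes, the level was 618.5 to 961.3 CPM in controls and 1362 and 1631 CPM in the libraries labelled Foxp1cKO. Leaving out control 4, Slc16a3 (log2 fold change 3.27, edgeR adjusted p = 0.00473) and Ldha (1.57, adjusted p = 0.0444) passed the threshold, and the calls over all genes went from 26 to 96. Leaving out any other single library, neither passed, with edgeR adjusted p-values of 0.0794 to 0.414 for Slc16a3 and 0.1 to 0.615 for Ldha.

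**Figure D3:**
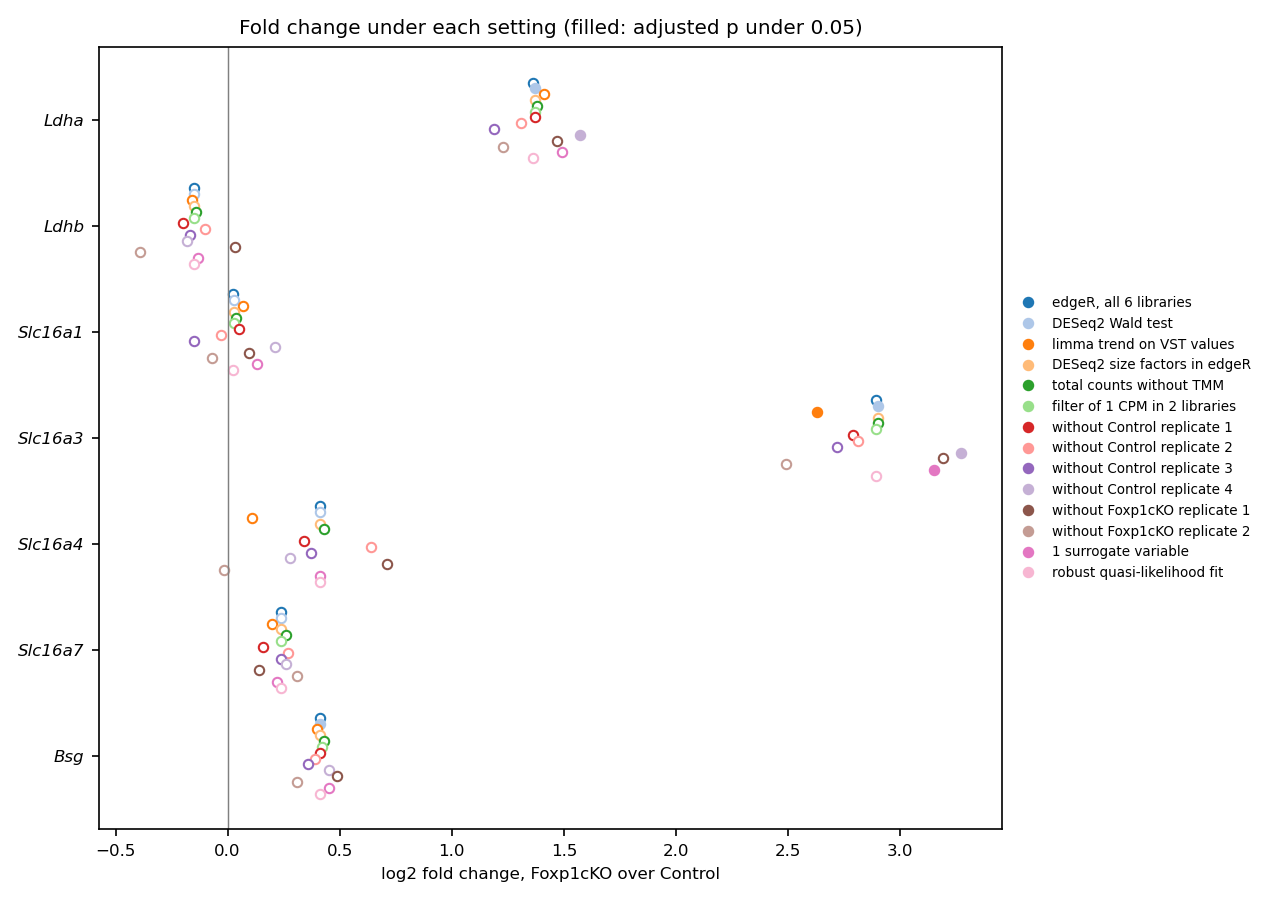
Log2 fold change (x axis, libraries labelled Foxp1cKO over controls) of each gene under each setting, with filled points at an adjusted p under 0.05. Fits with the replicate number as a block are not drawn. With the numbers paired as labelled, that block gave 3.13 for Slc16a3 and 1.4 for Ldha. Slc16a3 stays between 2.49 and 3.27 and Ldha between 1.19 and 1.57, whereas the points of Ldhb, Slc16a1 and Slc16a4 fall on both sides of 0.

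Per kilobase, the levels in controls ran from Ldhb (120 RPKM) and Ldha (117 RPKM) through Bsg (75.3 ± 5.2 RPKM), Slc16a1 (9.78 ± 2.97 RPKM), Slc16a3 (2.32 ± 1.1 RPKM) and Slc16a7 (1.14 ± 0.105 RPKM) to Slc16a4 (0.123 ± 0.0388 RPKM). Values of Ldha (76.4 to 164 RPKM) overlapped with those of both Ldhb (112 to 133 RPKM) and Bsg (69.6 to 80.7 RPKM), and the other neighbours did not overlap. In the libraries labelled Foxp1cKO the order was Ldha, Ldhb (108 RPKM), Bsg (100 ± 8.26 RPKM), Slc16a3 (17.2 ± 5.69 RPKM), Slc16a1 (9.94 ± 0.741 RPKM), Slc16a7 (1.34 ± 0.122 RPKM) and Slc16a4 (0.162 ± 0.0548 RPKM). Ldhb and Bsg did not differ beyond their spread there, and Slc16a3 and Slc16a1 had changed places.

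Among the controls alone, Ldha, Slc16a1, Slc16a3 and Slc16a4 varied most, by 2.14-fold, 2.1-fold, 2.59-fold and 2.02-fold from the lowest to the highest library, whereas Ldhb, Slc16a7 and Bsg varied by at most 1.22-fold. Ldha, Slc16a1 and Bsg shared one order of the controls, 3, 2, 1 and 4 from the lowest to the highest, an order found in 15.3% of all genes (2613 genes). Slc16a3 was also lowest in control 3 and highest in control 4. Control 3 is the one control with Foxp1 fl/fl, and it also stood apart in its ventral telencephalon markers, which summed to 845.2 CPM there and to 235.1 to 362.5 CPM in the other controls. The part of either in these levels was not tested. Slc16a1 followed Ldha among the controls, with log2 differences from the control mean of -0.56 in control 3 and 0.51 in control 4 beside -0.56 and 0.54 for Ldha. In the libraries labelled Foxp1cKO the pair parted, with Slc16a1 within 0.15 of the control mean and Ldha 1.30 and 1.52 above it.

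Summed markers of red cells and of mural cells did not overlap between the groups. By mean log2 CPM over the list, the mural list and the microglia and macrophage list did not overlap, whereas the red cell list did. In bulk tissue, a change in the number of cells of a type and a change in their RNA per cell cannot be told apart. Of the red cell list, 10 of 10 genes were in the table, and their summed level was 1115 to 1473 CPM in controls 1 to 3, 3615 CPM in control 4, and 3909 and 4200 CPM in the libraries labelled Foxp1cKO. Hbb-y, the largest of them, was at 754 to 935 CPM in controls 1 to 3 and 2340 CPM in control 4. It was at 2450 and 2740 CPM in the libraries labelled Foxp1cKO. None of the 10 was called in edgeR, and 4 lay above every control in both libraries labelled Foxp1cKO, beside 11.5% of all genes. DESeq2 called 1 of them, Hba-a1 (log2 fold change 1.11, DESeq2 adjusted p = 0.0305), beside 2.06% of the genes to which it gave an adjusted p. By mean log2 CPM over the list, control 4 (6.67) lay between the libraries labelled Foxp1cKO (6.63 and 6.75). Control 4, with a red cell sum near those of the libraries labelled Foxp1cKO, had Ldha at 542 CPM and Slc16a3 at 20.9 CPM. These levels were the highest among the controls and below both libraries labelled Foxp1cKO. Of the mural list, 7 of 7 genes were in the table, with sums of 200.2 to 240.7 CPM in controls and 299.6 and 306.7 CPM in the libraries labelled Foxp1cKO. All 7 log2 fold changes were positive, and 4 genes lay above every control in both, beside 11.5% of all genes. None was called in edgeR. DESeq2 called 1, Rgs5 (log2 fold change 0.61, DESeq2 adjusted p = 0.000697), beside 2.06% of the genes to which it gave an adjusted p. Endothelial sums (12 of 12 genes, 166.7 to 256.8 against 232.5 and 284.9 CPM), microglia and macrophage sums (9 of 9 genes, 24.93 to 40.48 against 42.32 and 39.81 CPM) and meningeal sums (7 of 7 genes, 99.62 to 582.3 against 157.7 and 352.2 CPM) overlapped. The mean log2 CPM of the microglia and macrophage list was 1.08 to 1.7 in controls and 1.85 and 1.73 in the libraries labelled Foxp1cKO. Of its 9 genes, 3 lay above every control in both, beside 11.5% of all genes, and none was called in edgeR or DESeq2. Within the endothelial list, the median log2 fold change was 0.07, with 8 of 12 values positive and 4 negative, Tek the lowest at -0.35. In edgeR 1 of the 12 was called, beside 0.152% of all genes. It was the VEGF receptor gene Flt1, at 12.5 to 18.1 CPM in controls and 44.6 and 54.2 CPM in the libraries labelled Foxp1cKO (log2 fold change 1.64, SE 0.159, adjusted p = 0.0179). DESeq2 called 2, Flt1 and Pecam1 (0.65, DESeq2 adjusted p = 0.0281), a gene of endothelial cell junctions. Both were higher, beside 2.06% of the genes to which DESeq2 gave an adjusted p. Of the cortical lists, radial glia (9 of 10 genes) were at 2198 to 2767 CPM in controls and at 2549 and 2493 CPM in the libraries labelled Foxp1cKO, and neurons (8 of 9 genes) were at 3125 to 5378 CPM and at 3993 and 4268 CPM. The neuron sum ran in the reverse order of Ldha among the controls, lowest in control 4 and highest in control 3. By mean log2 CPM over the neuron list this order did not hold in full. Control 4 was again lowest (8.3), but control 2 (9.03) lay above control 3 (9.01). Intermediate progenitors (4 of 4 genes, 534.2 to 736.3 against 527.7 and 595.6 CPM) and ventral telencephalon (9 of 9 genes, 235.1 to 845.2 against 528.5 and 391.6 CPM) were also measured, and of the choroid plexus list 1 of 5 genes was in the table. No marker list was at 0 in any library, and the part of these cells in the differences of Ldha, Slc16a3 and Bsg was not tested.

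**Figure D4:**
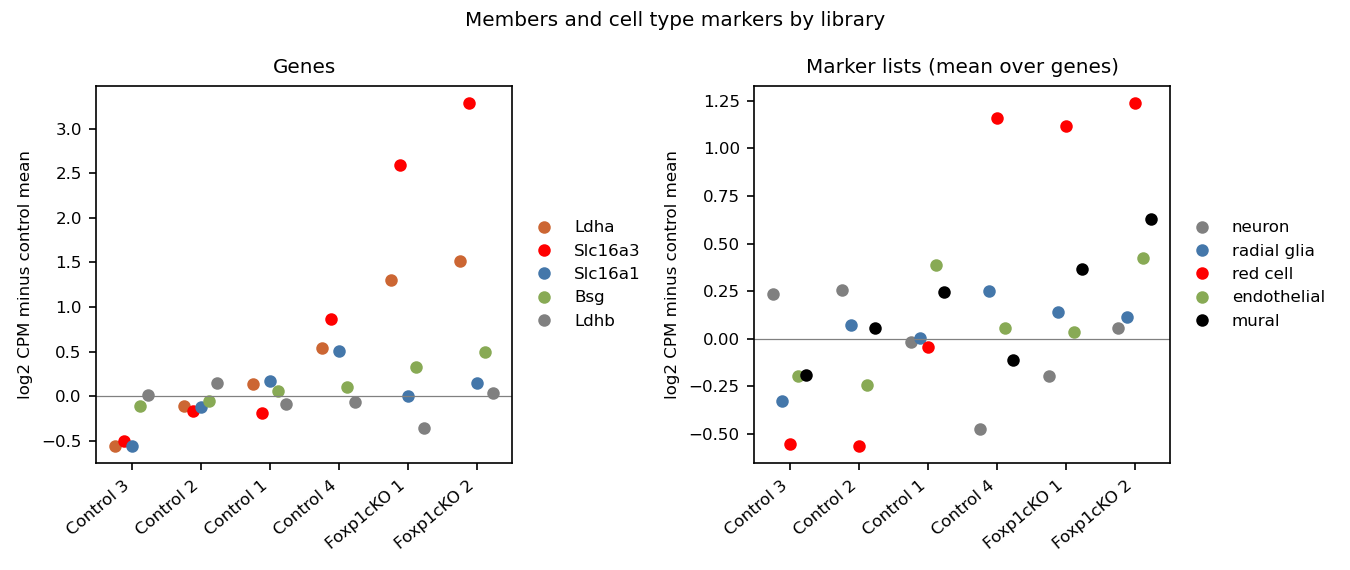
Log2 CPM minus the control mean (y axis) by library, for 5 of the genes (left) and for the mean over the genes of 5 marker lists (right), with controls in the order of their Ldha level. Control 4 lies near the libraries labelled Foxp1cKO for red cell markers. It is the highest control, and below both libraries labelled Foxp1cKO, for Slc16a3 (0.87 against 2.60 and 3.29) and Ldha (0.54 against 1.30 and 1.52).

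The wider pathway places the 7 genes between glycolysis and mitochondrial pyruvate use. Of 9 other Slc16a carriers and accessory proteins in the table, none was called or had an unadjusted p under 0.05 in edgeR, none was called by DESeq2, and none was separated between the groups. Slc16a10 (log2 fold change 0.73, SE 0.385, edgeR adjusted p = 0.461), a carrier of aromatic amino acids, and Slc16a12 (0.35, adjusted p = 0.763) had the largest values. Emb, the partner of MCT2, was at -0.26 (SE 0.258, adjusted p = 0.699), and Nptn, a relative of basigin, was at 0.08 (SE 0.114, adjusted p = 0.803). Among 17 genes from glucose uptake to pyruvate, 4 were called in edgeR, beside 0.152% of all genes. All 4 were higher: Aldoa (1.59), Gpi1 (1.41), Pfkl (1.29) and the glucose transporter Slc2a3 (1.17). The median log2 fold change of this list was 1.1. In both libraries labelled Foxp1cKO, 14 of 17 were above every control, beside 11.5% of all genes. DESeq2 called 11 of the 17, all higher, beside 2.06% of the genes to which it gave an adjusted p.

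Lists for other uses of pyruvate had medians near 0. Of 14 genes for pyruvate entry and oxidation in mitochondria, 1 was called in edgeR, beside 0.152% of all genes. It was Pdk1, a kinase that inhibits pyruvate dehydrogenase, with a log2 fold change of 2.16 (SE 0.205, edgeR adjusted p = 0.0177). Of this list, 4 genes lay below every control in both libraries labelled Foxp1cKO, beside 13.1% of all genes. They were Pdhb, Dlat, Dld and Pdhx of the pyruvate dehydrogenase complex, with log2 fold changes of -0.12 to -0.15 that did not pass the test. Pdha1, of the same complex, overlapped with the controls at 0.06 (SE 0.096, edgeR adjusted p = 0.832). Another 2 genes of the list lay above every control in both libraries labelled Foxp1cKO, beside 11.5% of all genes. These were Pdk1 and Pdk3 (0.25, SE 0.124, edgeR adjusted p = 0.441). Of 10 genes of the shuttles that carry cytosolic NADH into mitochondria, the alternative to lactate formation for regenerating NAD+, none was called and the median was -0.1. Malate dehydrogenase Mdh2 was at -0.24 (SE 0.0785, edgeR adjusted p = 0.305), and glycerol-3-phosphate dehydrogenase Gpd1 was at 0.48 (SE 0.203, adjusted p = 0.382). In these shuttles, 2 of 10 genes had an unadjusted p under 0.05 in edgeR, beside 13.0% of all genes, and DESeq2 called none. Of 8 genes for other fates of pyruvate and lactate precursors, none was called in edgeR or DESeq2 or had an unadjusted p under 0.05, with a median of -0.09.

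**Figure D5:**
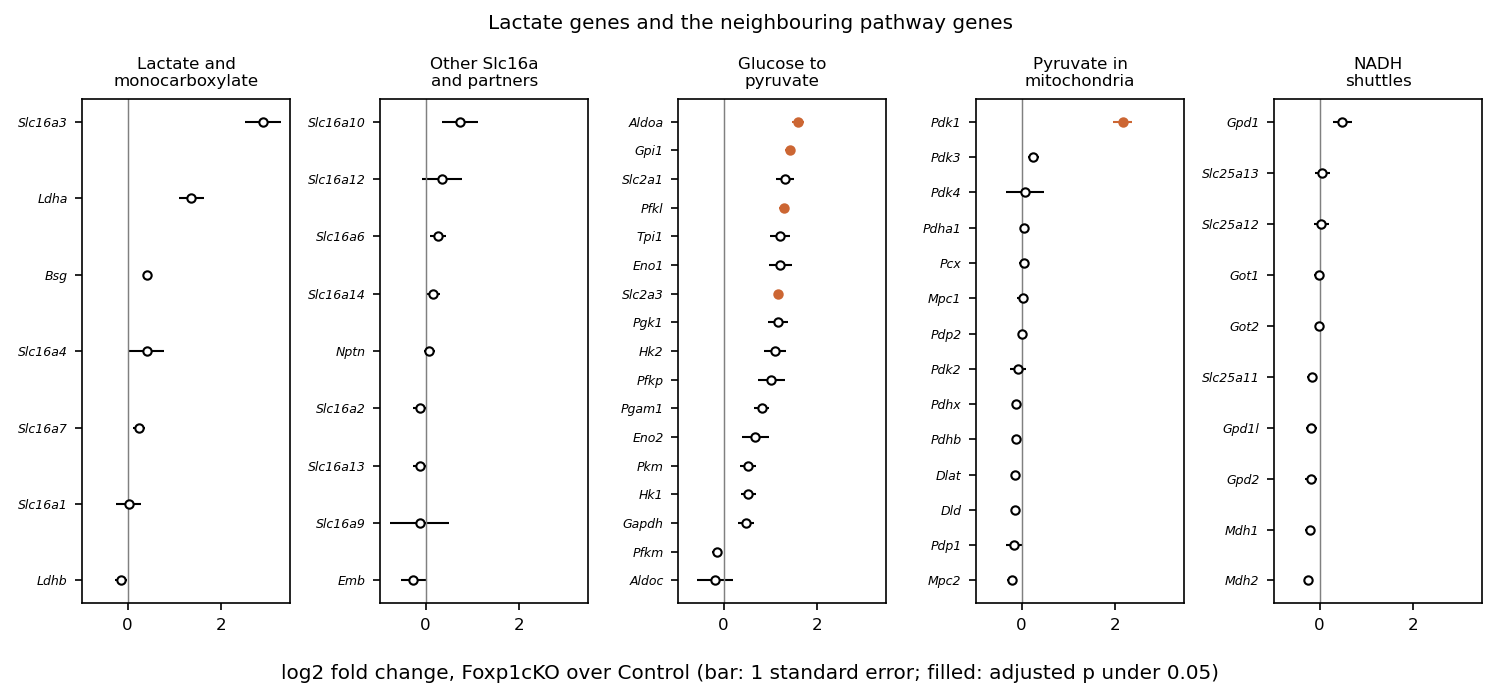
Log2 fold change (x axis, libraries labelled Foxp1cKO over controls) with a bar of 1 standard error for each gene of 5 lists, filled at an edgeR adjusted p under 0.05. Slc16a3 (2.89) and Ldha (1.36) lie beside a glycolysis list in which 15 of 17 values are positive, beside 49.3% of all genes. The NADH shuttle genes have a median of -0.1.

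The genes whose pattern over the 6 libraries was most like that of a member were found by the root mean square difference of mean-centred log2 CPM, among 13855 genes with a mean of at least 1 CPM. Nearest to Slc16a3 were Depp1 (0.33), the mitophagy receptor gene Bnip3 (0.342) and Pdk1 (0.431). Nearest to Ldha were the enolase gene Eno1 (0.0956), the metallothionein gene Mt1 (0.106) and the triosephosphate isomerase gene Tpi1 (0.109). On the deposited variance-stabilized values, Bnip3 and Pdk1 were again among the 3 nearest to Slc16a3, and Eno1 and Tpi1 among those nearest to Ldha. For Slc16a4 the nearest were Camk2n1 (0.113), Sphkap (0.145) and Lingo4 (0.158), and none of these remained among the 3 nearest on the variance-stabilized values.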

How the data were processed

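RNA of 6 embryos was sequenced. Per the labels and the study's methods, the authors made stranded paired-end libraries, aligned them to mm10 with STAR, counted reads per gene with HTSeq 0.9.1 (union mode) and dropped genes that were hardly counted. The deposited counts are whole numbers and were not normalized. The authors also deposited variance-stabilized values of these counts, on a log2-like scale.

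Counts of all 17068 genes were tested in R 4.3.3 with edgeR 4.0.16 (quasi-likelihood, TMM, group alone, Benjamini-Hochberg over all genes, adjusted p under 0.05). The authors' litter term was not used, since the labels do not give litters. DESeq2 1.42.0, limma 3.58.1 on the variance-stabilized values and sva 3.50.0 were alternatives. The edgeR, DESeq2 and limma fits were tested on simulated counts, limma there on log2 values scaled to depth. Log2 CPM used a prior count of 2. Ratios and shares were compared by exact permutation over libraries.

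Positions and lengths came from GENCODE M21, with 17047 identifiers found. Replicates differed by a chi-square of 25.9 to 193 per gene, far above counting error. The exact Poisson intervals of Slc16a4 and the floors cover counting error only, since PCR reads are not independent molecules. The intervals of log2 fold changes came from the edgeR quasi-likelihood fit and include the spread between libraries. The members and lists were chosen with earlier results of these data known. Besides the members, the text names called genes and up to 5 genes with the largest fold changes per pathway list, up to 3 per marker list, Foxp1, and the 3 genes nearest in pattern to each of 3 members. Emb, Nptn, Pdha1, Pdhb, Dlat, Dld and Pdhx were named for their role, after their values were seen.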

Additional observations from a re-analysis of the deposited data

Results flagged for a closer look

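Among the 4 controls, 12 measures were checked for a library that stands apart, and chance flags about 1 in 20 of such groups. The Slc16a3 level of control 4 was 20.9 CPM beside 8.08 to 10.2 CPM in the other controls, a gap of 0.835 of the whole range. The Slc16a7 level of control 1 was 11.6 CPM beside 14.0 to 14.2 CPM in the others, a gap of 0.922 of the whole range.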

How the results depend on the processing

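Under the alternatives tried, Slc16a3, Ldha, Bsg and Slc16a7 kept a positive log2 fold change, with ranges of 2.49 to 3.27, 1.19 to 1.57, 0.31 to 0.49 and 0.14 to 0.31. DESeq2 called 507 genes and 3 members (Ldha 1.37, Slc16a3 2.90, Bsg 0.41), limma called 27 genes and 1 member (Slc16a3 2.63), and a fit with 1 surrogate variable called 17 genes and 1 member (Slc16a3 3.15, adjusted p = 0.0354). Leaving out single libraries gave 2 genes called without control 2, 3 without the second library labelled Foxp1cKO, 6 without control 1, 9 without the first library labelled Foxp1cKO and 96 without control 4, and 0 to 2 members, beside 26 genes and 0 members with all libraries. The cause was not tested. Over these fits Slc16a3 ran from 2.49 to 3.27 and Ldha from 1.19 to 1.57. Slc16a1 ran from -0.15 to 0.21 and turned to -0.029 without control 2, -0.15 without control 3 and -0.069 without the second library labelled Foxp1cKO. Ldhb ran from -0.39 to 0.031, positive without the first library labelled Foxp1cKO, and Slc16a4 from -0.014, without the second, to 0.71. Where a single library labelled Foxp1cKO was left, it was assumed to vary like the controls. Replicate numbers 1 and 2 are shared by both groups, but same-numbered libraries did not deviate together (correlation -0.129). The fit with the replicate block called 0 genes and 0 members (3027 and 3 at an unadjusted p under 0.05), and the fit with the pairing crossed, chosen after seeing the data, called 1301 genes and 3 members. Controls 3 and 4 share their numbers with no other library, so in both fits they add nothing to the group difference. Little spread between libraries was then left to estimate error, and neither count can say whether the calls with all libraries hold. Without division by length, the differences in share were -32.3 percentage points for Slc16a1 and -9.55 for Slc16a7, beside -37.7 and -4.24. At 24 to 59 reads per library, depth limits what can be said of Slc16a4, which the filter of 1 CPM in 2 libraries removes.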
